A study of Mus musculus with 6 samples.

Results

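Hmgcs1, Idi1, Fdps, Sqle, Lss, Cyp51 and Dhcr7 are 7 enzyme genes of cholesterol synthesis, and their transcript levels were followed across 6 RNA-seq libraries of mouse striatum. The 7 were taken by name, matched through GENCODE symbols to the Ensembl identifiers of the count files, out of 55335 identifiers in all. All 7 were found, and all 7 were among the 19809 genes with enough counts to be tested. The libraries came from C57 mice: 3 controls, labelled wild type, and 3 labelled as overexpressing PDE5A, an enzyme that breaks down the second messenger cyclic GMP. Not given in the sources used here: the age of the mice, how overexpression was brought about, the cells it reached and what the controls received.

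Cholesterol is built from acetyl-CoA in a long series of steps. The early, mevalonate part makes isoprenoid units that also feed ubiquinone, dolichol and protein prenylation, squalene synthesis commits the carbon to sterols, and the later steps close and trim the rings. Transcription of most of these enzymes is driven by SREBP2, which is released from the endoplasmic reticulum when sterol is scarce, so their messenger RNAs tend to move as a unit. The brain makes its own cholesterol because plasma lipoproteins do not cross the blood-brain barrier. Oligodendrocytes use it for myelin and astrocytes pass it to neurons.

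The 7 genes did not differ detectably between PDE5A-overexpressing and control striatum. Their fold changes lay between 0.923 for Dhcr7 and 1.02 for Fdps, 0 of 7 passed the test, and in all 7 the range of the overexpression libraries overlapped that of the controls. Their levels varied between libraries of the same group. The 2 pairs of libraries given next were chosen after the values were seen, and the share of all genes with the same directions was not counted. All 7 were higher in overexpression replicate 3 than in overexpression replicate 1, by a mean of 0.34 on the log2 scale (1.27-fold), and all 7 were higher in control replicate 3 than in control replicate 2, by a mean of 0.26 (1.19-fold). The order of the libraries by these genes was close to their order by markers of cortical glutamatergic neurons.

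Library totals ran from 33013698 to 42288789 counts, and the member with the fewest reads in any library, Dhcr7, had 820 counts there. The share of counting error in each gene's spread was not separated. Pde5a, the manipulated gene, had 3.72 to 6.09 CPM (the count as a share of the TMM-adjusted library size, scaled to the usual CPM unit) in the controls and 592 to 760 CPM in the overexpression libraries. The 13 medium spiny neuron markers, which define striatal tissue, were all present, with a summed level of 5712 to 9996 CPM in control and 4751 to 9756 CPM in overexpression. Of 19809 genes, only Pde5a passed the test, an edgeR quasi-likelihood test with a Benjamini-Hochberg adjusted p under 0.05. Whether each library is a different animal is not given, and p-values then rest on the spread of these samples alone, which may be technical. In bulk tissue, fewer cells of a type and less RNA per cell cannot be told apart.

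The stretches upstream of 2 start sites are shown because Hmgcs1 carries both, and Lss the second, of 2 letter patterns linked to this pathway, the core of the sterol regulatory element bound by SREBP (TCACNCCAC) and the CCAAT box bound by NF-Y (CCAAT), both searched on both strands. Each runs 5′ to 3′ on the gene's strand and ends just before the most upstream start given by RefSeq or GENCODE. The sequences are from RefSeq, build GRCm38.p6, and matches to either pattern are in capitals. The Hmgcs1 stretch is chr13:119690151-119690350 and the Lss stretch chr10:76531388-76531587, both on the plus strand.
Hmgcs1: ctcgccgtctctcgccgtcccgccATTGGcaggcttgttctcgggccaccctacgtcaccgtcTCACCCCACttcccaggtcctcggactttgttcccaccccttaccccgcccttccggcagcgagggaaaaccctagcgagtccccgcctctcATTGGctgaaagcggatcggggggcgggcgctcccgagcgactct
Lss: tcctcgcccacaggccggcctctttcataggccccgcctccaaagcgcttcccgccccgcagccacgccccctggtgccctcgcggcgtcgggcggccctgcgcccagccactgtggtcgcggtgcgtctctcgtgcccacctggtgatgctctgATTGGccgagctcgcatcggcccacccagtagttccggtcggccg

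In the 250 bases before each start site, the sterol regulatory element core matched 1 of the 5 members with an entry (all but Fdps and Sqle), Hmgcs1, 137 bases upstream of its RefSeq start. It matched 1.05% of all 32851 windows of that length and 0 of the 11 other cholesterol synthesis enzymes with an entry. Variants of the pattern were not searched, so a gene without a match may still carry a sterol regulatory element. The CCAAT box matched all 5 members and 10 of the 11 other enzymes before at least 1 start site. Counted by window, it was in 5 of the 7 windows of the members, against 33.8% of all windows. In Lss it lay 62 bases upstream of the RefSeq start, which is downstream of the GENCODE start where the printed stretch ends. In Hmgcs1 it lay 45 and 176 bases upstream of the RefSeq start, with another at 237 beyond the printed stretch. In Dhcr7 it lay only before a downstream alternative start. In Idi1 (45 and 14 bases) and Cyp51 (29 bases) it lay before the RefSeq start but inside the gene as GENCODE gives it. The GC box read by Sp1 (GGGCGG, both strands) also matched all 5 members and 10 of the 11 other enzymes, and 6 of the 7 windows of the members against 32.7% of all windows. The Idi1 match, 69 bases before its RefSeq start, was also inside the GENCODE gene. These are matches of letters in a window and say nothing of binding.

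Hmgcs1 encodes the cytosolic HMG-CoA synthase, an early enzyme of the mevalonate part. It lies on chromosome 13 from 119690379 to 119708260 in mm10. Its level was 231, 197 and 252 CPM for control replicates 1 to 3, against 196, 214 and 271 CPM for overexpression replicates 1 to 3. The lowest control and the lowest overexpression library were almost level, and the highest value belonged to overexpression replicate 3. The means were 227 ± 27.7 CPM in controls, against 227 ± 39.0 CPM with overexpression (SD, n = 3), a fold of 1.001 with a 95% interval of 0.798 to 1.26.

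Idi1 encodes the isomerase that interconverts the activated isoprene units. It lies on the same chromosome from 8885501 to 8892451. Control libraries had 40.6, 32.1 and 37.7 CPM and overexpression libraries 34.5, 36.0 and 37.4 CPM, so the overexpression values fell inside the control range. The fold was 0.977 (95% interval 0.837 to 1.14). Of the 50-base words in its transcripts, 17.7% also occur in the processed pseudogene Gm13502, which had at most 238 counts in a library against at least 1196 for Idi1, so part of its count is uncertain.

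Fdps encodes farnesyl diphosphate synthase, whose product is the branch point between sterols and the other isoprenoids. It lies on chromosome 3 from 89093588 to 89101959, on the minus strand. Its level was 36.8, 25.1 and 35.8 CPM in controls, against 28.4, 31.0 and 39.8 CPM with overexpression. Fdps had the widest spread of the 7, with its highest library 1.58 times its lowest, and the 2 ends were overexpression replicate 3 and control replicate 2. The fold was 1.02 (95% interval 0.755 to 1.37). It shares 12.1% of its 50-base words with the pseudogene Gm3571, which had at most 88 counts. It shares 23.4% with the gene model Gm43738, which overlaps it on the same strand and was listed at 0 in all libraries. How reads common to both were counted is not given in the sources used here, so part of the Fdps count is uncertain.

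Sqle encodes squalene epoxidase, the first oxygen-requiring step and a second control point of the pathway. It lies on chromosome 15 from 59315077 to 59331192. Levels of 43.3, 35.1 and 44.4 CPM in control stood beside 32.7, 38.7 and 46.0 CPM in overexpression, and the overexpression libraries spanned the whole control range. The fold was 0.956 (95% interval 0.760 to 1.20).

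Lss encodes lanosterol synthase, which folds the epoxide into the first sterol. It lies on chromosome 10 from 76531588 to 76557138. Control libraries had 42.1, 37.5 and 42.7 CPM. In overexpression the values were 34.2, 34.3 and 44.7 CPM, so replicates 1 and 2 were below every control and replicate 3 above every control. The fold was 0.926 (95% interval 0.766 to 1.12).

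Cyp51 encodes lanosterol 14-alpha demethylase, a cytochrome P450. It lies on chromosome 5 from 4081145 to 4104746, on the minus strand. Its level was 55.3, 55.1 and 58.3 CPM in controls, against 48.9, 53.4 and 57.3 CPM with overexpression. Overexpression replicates 1 and 2 were below the controls and replicate 3 between them. It varied least of the 7, with a highest library 1.19 times its lowest, and had a fold of 0.947 (95% interval 0.838 to 1.07). Its locus overlaps Akap9 on the opposite strand, which had up to 10307 counts in a library, and whether counting used strand is not given in the sources used here.

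Dhcr7 encodes 7-dehydrocholesterol reductase, the last step of one route to cholesterol. It lies on chromosome 7 from 143823145 to 143848410. Its level was 26.4, 25.4 and 27.2 CPM in controls, against 22.3, 24.7 and 26.1 CPM with overexpression. The groups overlapped only through overexpression replicate 3, which was above control replicate 2. Its fold of 0.923 (95% interval 0.804 to 1.06) was the lowest of the 7. It was also the 1 member whose difference in mean log2 level (−0.12) was larger than its SD within groups (0.089). For the other 6 the SD within groups was the larger of the pair.

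**Figure D1:**
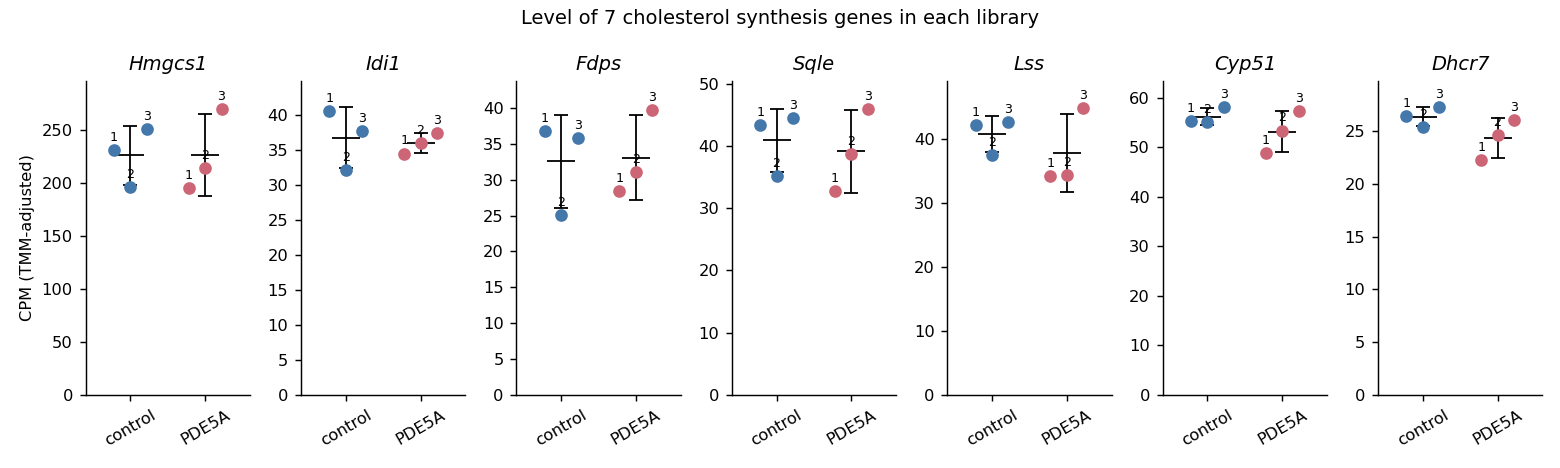
Level of each of the 7 genes in CPM (vertical axis from 0, own scale for each gene) in the 3 control libraries (blue) and the 3 PDE5A overexpression libraries (red), with replicate numbers, the group mean (dash) and SD (bars, n = 3). The groups overlap in all 7 genes, and overexpression replicate 1 is the lowest overexpression library in each.

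Each of the 7 had an edgeR quasi-likelihood p of 0.99996 after Benjamini-Hochberg adjustment, and the smallest unadjusted p was 0.215, for Dhcr7. Over all genes the share past the threshold was 0.00505%. At an unadjusted p under 0.05 there were 0 of 7 members against 3.89% of all genes, and by the DESeq2 Wald test 0 of 7 against 0.419%. The groups were separate in 0 of 7 members against 8.93% of all genes. The log2 fold change was negative for 5 of 7, with a median of −0.07, where 49.4% of all genes tested were negative and their median was 0.0016. A p above the threshold does not show that the groups were equal. The intervals show the limit: the lowest bound over the 7 genes was a fold of 0.755 and the highest 1.37, both for Fdps. Overexpression replicate 3 was the highest overexpression library for all 7, and control replicate 2 the lowest control, so removing either lowers the fold changes. Without overexpression replicate 3 the log2 fold changes of all 7 were negative, from −0.25 to −0.06. Without control replicate 2 all 7 were negative too, from −0.16 to −0.09. The median of all genes was −0.0050 and 0.0036 in these 2 fits, and the share of all genes negative was not counted. Without overexpression replicates 1 and 2 the median of the 7 turned to 0.13.

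Levels per length, as CPM per kilobase of annotated exon over all 6 libraries, differed more between the genes than within them. Hmgcs1 was far above the others at 49.3 ± 6.59, followed by Cyp51 at 12.4 ± 0.748 and Idi1 at 10.4 ± 0.829 (SD, n = 6). Fdps at 7.80 ± 1.32 and Sqle at 7.22 ± 0.972 differed by less than either SD. Dhcr7 at 4.36 ± 0.300 and Lss at 3.64 ± 0.420 were lowest. The exon length counts every base of any annotated transcript, which lowers the value of genes with long rare transcripts.

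Of the other 14 enzymes from acetyl-CoA to cholesterol, all tested, 0 passed, 11 had positive and 3 negative fold changes, and the median was 0.02. Fdft1, squalene synthase, had 73.5 ± 9.30 CPM in controls, against 76.5 ± 5.79 CPM with overexpression (SD, n = 3). The 4 with the smallest p were Sc5d, a sterol desaturase (log2 fold change −0.11, SE 0.088), Ebp, a sterol isomerase (0.14, SE 0.11), Acat2, acetoacetyl-CoA thiolase (−0.10, SE 0.086), and Tm7sf2, a sterol reductase (0.15, SE 0.15). Benjamini-Hochberg adjustment of the edgeR p gave 0.99996 for each of these, as for every pathway gene named from here on. Of 6 enzymes on the isoprenoid branches 3 were positive and 3 negative, with a median of −0.01, and 0 passed. Log2 fold changes there were −0.14 (SE 0.13) for Pdss1 and 0.14 (SE 0.15) for Pdss2, the subunits that make the ubiquinone tail, and −0.05 (SE 0.077) for Nus1 and 0.03 (SE 0.068) for Dhdds, which make dolichol.

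**Figure D2:**
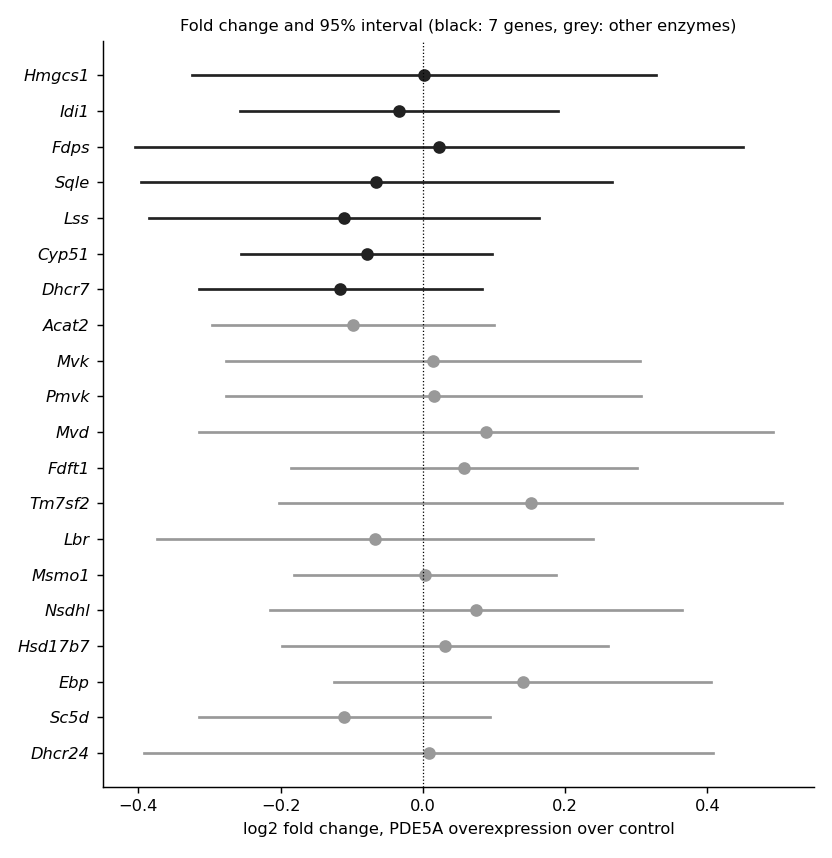
Log2 fold change of PDE5A overexpression over control (horizontal axis) with its 95% interval for the 7 genes (black) and 13 of the 14 other cholesterol synthesis enzymes (grey). The intervals of all genes shown include 0, and the points lie between −0.12 and 0.15.

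Regulators and handlers of sterol were likewise not called. Among 12 genes of sterol sensing 0 passed and the median was −0.01. Srebf2, the transcription factor of this pathway, had 193, 176 and 197 CPM in controls, against 183, 173 and 203 CPM with overexpression, and Insig1, which holds SREBP in the endoplasmic reticulum and is itself an SREBP target, had 68.3, 63.7 and 75.1 CPM and 59.6, 71.4 and 77.7 CPM. In both, overexpression replicate 3 had the highest level, as in Hmgcs1. Srebf1 and Insig2, relatives of this pair, had log2 fold changes of −0.06 (SE 0.086) and −0.05 (SE 0.066). The oxysterol-sensing liver X receptors Nr1h3 and Nr1h2 had 0.17 (SE 0.18) and −0.07 (SE 0.080).

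Of 12 uptake and transport genes 0 passed, 9 were positive and the median was 0.04. Npc2, which carries cholesterol out of lysosomes, had 72.9, 71.9 and 67.5 CPM in controls, against 82.7, 92.9 and 72.7 CPM with overexpression. Its log2 fold change of 0.23 (SE 0.095) had an unadjusted p of 0.0460 in edgeR's test, the 1 gene of the 12 below 0.05. Overexpression replicates 1 and 2, the libraries where Npc2 was highest, also had the highest choroid plexus markers: the 12 markers, all tested, summed to 54.2 to 74.3 CPM in control and to 543, 2499 and 34.7 CPM in overexpression replicates 1 to 3, and Cldn2 was at 0 in control replicate 2. The 10 microglia markers were likewise highest in those 2 libraries, summing to 584 CPM in replicate 1 and 560 CPM in replicate 2. They summed to 483 to 513 CPM in control and to 450 CPM in overexpression replicate 3. The part of either marker list in the Npc2 values was not tested. Lrp1, a lipoprotein receptor, and Gramd1b, a sterol carrier at membrane contacts, had log2 fold changes of −0.11 (SE 0.076) and 0.08 (SE 0.11).

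The 8 efflux and lipoprotein genes had 0 past the threshold and a median of 0.01. The cholesterol exporters Abca1 and Abcg4 had log2 fold changes of −0.14 (SE 0.12) and −0.12 (SE 0.12), the phospholipid transfer protein Pltp 0.17 (SE 0.14), and the cholesterol-esterifying enzyme Lcat −0.19 (SE 0.21). Of 8 turnover and storage genes 0 passed and the median was 0.03. Cyp46a1, the neuronal 24-hydroxylase through which the brain disposes of cholesterol, had 169.7 ± 13.6 CPM in controls, against 182 ± 2.32 CPM with overexpression (SD, n = 3). Ch25h, cholesterol 25-hydroxylase, had 0.215, 0.268 and 0.247 CPM in controls, against 0.405, 0.752 and 0.187 CPM with overexpression. These are raw counts of only 9, 11 and 10 in controls, against 16, 25 and 7 with overexpression (log2 fold change 0.86, SE 0.54). Ch25h was highest in the same 2 libraries as the choroid plexus and microglia markers, an order that rests on these few reads. Cyp39a1, an oxysterol hydroxylase, and Nceh1, a cholesteryl ester hydrolase, had log2 fold changes of 0.33 (SE 0.23) and 0.03 (SE 0.081).

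Fatty acid synthesis, the SREBP1 branch of lipid supply, had 0 of its 12 genes past the threshold. Of the 12, 11 had negative fold changes, where 49.4% of all genes were negative, and the median was −0.16. Whether this differs from the 7 cholesterol genes was not tested. Fasn, fatty acid synthase, had 239, 248 and 234 CPM in controls, against 224, 212 and 206 CPM with overexpression, the 1 gene of the 12 with separate groups, as were 8.93% of all genes (log2 fold change −0.17, SE 0.068, unadjusted p 0.0371 in edgeR's test). Scd2, the main brain stearoyl-CoA desaturase, had 2441, 2260 and 1973 CPM in controls, against 2008, 1828 and 1780 CPM with overexpression (−0.25, SE 0.10, unadjusted p 0.0429 in edgeR's test). Acsl3, an acyl-CoA synthetase, and Acly, which supplies cytosolic acetyl-CoA, had −0.18 (SE 0.090) and −0.19 (SE 0.10). Astrocyte markers had negative fold changes in 10 of 10, 0 of them past the threshold, and summed levels of 6889 to 7198 CPM in control and 5834 to 6567 CPM in overexpression. Astrocytes were not alone in this: 10 of 12 myelinating oligodendrocyte markers and 11 of 13 medium spiny neuron markers were negative. Other lists went the other way, with 3 of 10 microglia and 0 of 12 cortical glutamatergic markers negative. The part of any marker list in the fatty acid values was not tested.

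The 7 genes varied between libraries of both groups, with a profile that was widest in Hmgcs1, Fdps, Sqle and Lss. Their mean log2 CPM, centred on the 6 libraries, was 0.10, −0.14 and 0.12 for control replicates 1 to 3. For overexpression replicates 1 to 3 it was −0.18, −0.06 and 0.16. Summed over the 7, the level was 475, 407 and 498 CPM in controls, against 397, 432 and 522 CPM with overexpression. Of the 7, 6 were highest in replicate 3 of either group and lowest in control replicate 2 or overexpression replicate 1, a description chosen after the values were seen. The exception was Idi1, highest in control replicate 1. Cyp51 and Dhcr7 were low in overexpression replicate 1 but not in control replicate 2, where their centred values were 0.014 and 0.0063. Among all genes tested 19.5% had this order, as did 10 of the 14 other enzymes. The 14 had centred means of 0.02, −0.17 and 0.11 in control and −0.11, −0.03 and 0.17 in overexpression.

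Each gene was compared with the mean profile of the other 6 by the root mean square difference over the 6 libraries on the log2 scale. Sqle (0.062) and Hmgcs1 (0.068) were closest, against a root mean square variation of their own of 0.18 and 0.17. Fdps was farthest, at 0.13 against 0.23. Cyp51 was farther from the others (0.095) than the size of its own variation (0.081), and Dhcr7 (0.091 against 0.093) and Idi1 (0.093 against 0.11) were about level. Among 16036 other genes with a mean of at least 1 CPM, the median difference from the mean profile of all 7 was 0.19. A gene level across the 6 libraries would differ from that profile by 0.13, which is closer than the median. The measure thus reflects the size of a gene's variation as well as its pattern. Ranked by it, 10 of the 14 other enzymes were in the first 10 percent, led by Pmvk, phosphomevalonate kinase, at place 26 and Sc5d at place 101. Mvd, the decarboxylase of the mevalonate part, was the farthest enzyme at place 4857. Insig1 was at place 255 and Srebf2 at 398, while Srebf1 was at 7189. The 5 closest genes outside the 7 were Tbcb, a tubulin-folding cofactor, Syde1, a GTPase-activating protein, Nsf, an ATPase of vesicle fusion, Prnp, the prion protein, and Pgp, phosphoglycolate phosphatase, at 0.025 to 0.032. Closeness over 6 libraries that differ in tissue makeup is a description of these libraries only.

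Of the marker lists, that of cortical glutamatergic neurons came closest to this profile in the order of the libraries, though not in size. That of medium spiny neurons ran opposite in order. The root mean square difference was not computed for the lists. The 12 markers of cortical glutamatergic neurons, all tested and none at 0, summed to 657, 224 and 1103 CPM in control replicates 1 to 3 and to 427, 760 and 1422 CPM in overexpression. By mean log2 CPM they ordered the libraries as control 2, overexpression 1, overexpression 2, control 1, control 3 and overexpression 3. The 14 other enzymes gave the same order, and the 7 genes gave it with the 2 lowest libraries exchanged. By mean log2 CPM, medium spiny neuron markers gave exactly the reverse of the cortical order. Their summed levels were 7397, 9996 and 5712 CPM in controls, against 9756, 7543 and 4751 CPM with overexpression. By summed CPM the cortical markers were lower in control 1 than in overexpression 2, so the place of these 2 libraries depended on the measure. The range of the cortical list was 6.35-fold and that of the 7 genes 1.32-fold. Myelinating oligodendrocyte markers, the cells with the best known demand for sterol, did not follow the order: the 12 summed to 16054, 14499 and 11305 CPM in control and to 13336, 12276 and 13182 CPM in overexpression. What part the makeup of the tissue pieces had in the levels of the 7 genes was not tested.

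**Figure D3:**
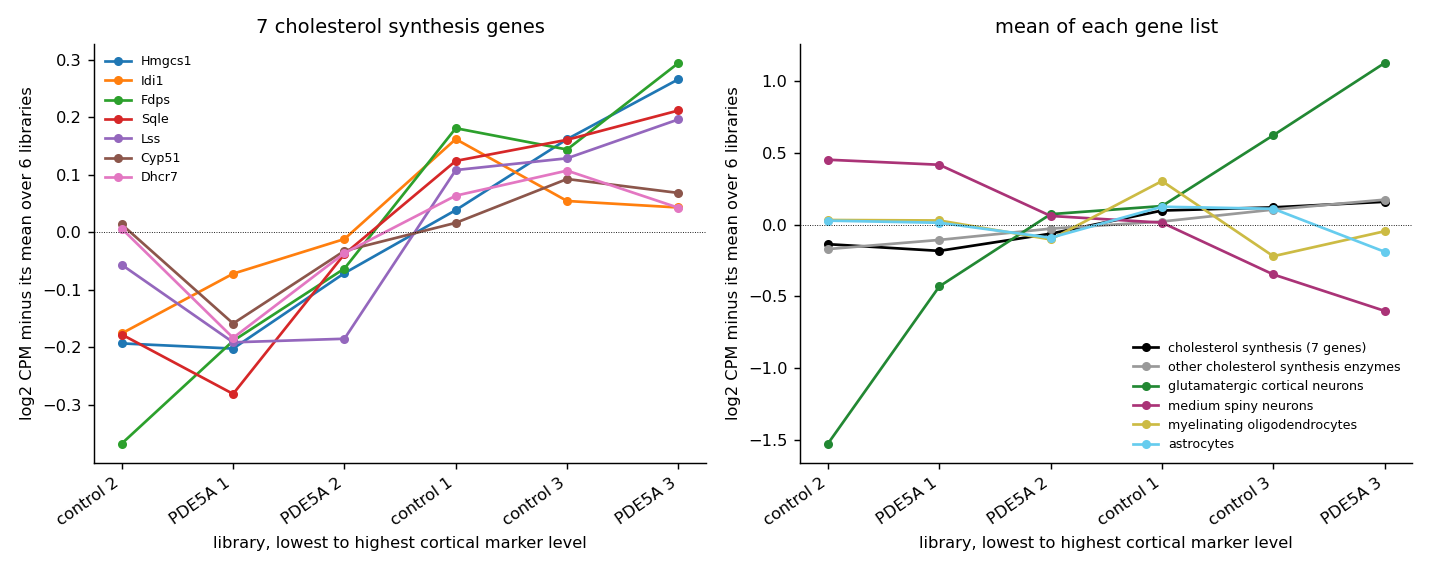
Centred log2 CPM (vertical axis) in the 6 libraries, placed from lowest to highest cortical marker level (horizontal axis), for the 7 genes (left, 1 line per gene) and for the means of gene lists (right, 1 line per list). The means of the 7 genes and of the 14 other enzymes lie at −0.14 and −0.17 in control 2 and at 0.16 and 0.17 in overexpression 3, cortical markers span a wider range, and medium spiny neuron markers descend.

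With the cortical marker level added to the model as a covariate, the standard errors of all 7 genes narrowed, from between 0.076 and 0.18 to between 0.071 and 0.086. All 7 log2 fold changes were then negative, from −0.19 for Lss to −0.09 for Idi1, with a median of −0.12, where 50.5% of all genes were negative in that fit. Sqle (−0.18, SE 0.079) and Lss (−0.19, SE 0.086) had unadjusted p of 0.0496 and 0.0498 in that edgeR fit, where 5.48% of all genes were under 0.05. Of the 7, 0 passed, against 0.0303% of all genes, with a lowest adjusted p of 0.910 by Benjamini-Hochberg. The directions of Hmgcs1 and Fdps turned from positive to negative. The cortical markers themselves had positive fold changes in 12 of 12, with a median log2 fold change of 0.40. This covariate is thus not independent of group, and it lowers the estimate of genes that rise with it. The 7 negative signs are therefore not separate evidence of a decrease. With the choroid plexus marker level as the covariate instead, 3 of 7 were negative and the median was 0.038, with Sqle at 0.038 and Lss at 0.041. The standard errors of the 7 then ran from 0.093 to 0.21. With the myelinating oligodendrocyte marker level, 6 of 7 were negative and the standard errors ran from 0.080 to 0.21. Narrowing in all 7 genes was thus seen only with the cortical covariate. Each of these covariate fits has 3 residual degrees of freedom among 6 samples.

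**Figure D4:**
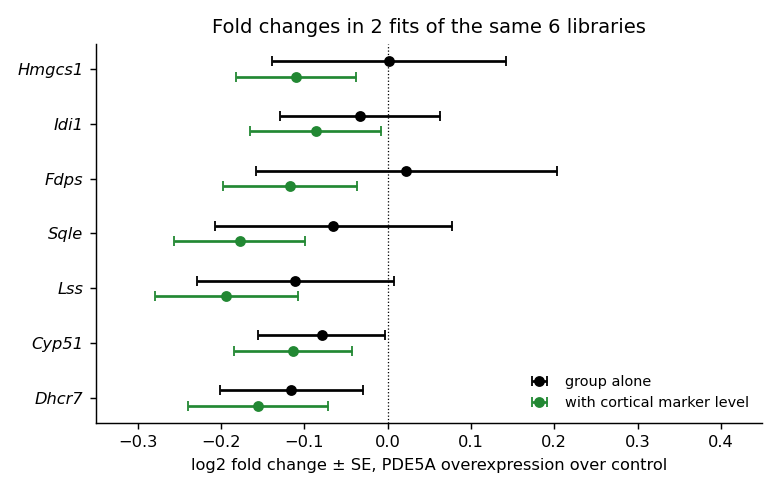
Log2 fold change ± SE of the 7 genes (horizontal axis) from the fit with group alone (black) and from the fit that adds the cortical marker level (green), both on the same 6 libraries. The green points are all below 0, between −0.19 and −0.09, and their bars are narrower in all 7, while none of the 7 genes passed the threshold in either fit.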

How the data were processed

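RNA-seq of 6 mouse striatum samples was used, 3 control and 3 overexpressing PDE5A, grouped by sample title. The deposited values are raw counts, whole numbers for each gene that the authors left unnormalized. The submitters' processing notes name build mm10, STAR 2.5.3a, DESeq 1.16.1, FastQC 0.11.5 and Cuffnorm, with no roles. The labels' protocols describe strand-specific libraries, but which program counted the reads, with which annotation and whether by strand, is not given in the sources used here. Within a group, replicates were farther apart than counting noise (chi-square per degree of freedom of at least 19.1), so none was taken for 1 library deposited again. That does not show separate animals.

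Of 55335 identifiers, 55154 were named from GENCODE M21. The test was that of edgeR 4.0.16, run in R 4.3.3 (TMM, filterByExpr, robust quasi-likelihood F-test, two-sided, Benjamini-Hochberg adjustment over 19809 genes, threshold 0.05), tested on simulated data first. A standard error is the size of the log2 fold change over the root of F, and 95% intervals use its degrees of freedom. Log2 CPM had a prior count of 2. DESeq2 1.42.0, limma-voom 3.58.1, other scalings and filters, library removal, a replicate block and marker covariates were alternatives. The members and all gene lists were chosen with earlier results of these data known. Named by rule were the members, Pde5a, Fdft1, Srebf2, Insig1, up to 4 genes per pathway list with the smallest p, and the 5 genes most like the members. Pmvk and Mvd, named as the nearest and farthest enzyme, were chosen after their values were seen, as was Cldn2. Some genes of the lists that the rule would name are counted but not reported by name here.

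Deviations of same-numbered replicates from their group means correlated at −0.022, 0.033 and 0.42 over 16043 genes for replicates 1 to 3, so 1 of the 3 pairs was over 0.1. The highest value was between different numbers, control 2 and overexpression 1 (0.51), and numbers were not treated as pairs.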

Additional observations from a re-analysis of the deposited data

How the results depend on the processing

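In every alternative 0 of the 7 genes passed the threshold. The median log2 fold change of −0.07 moved by less than the spread between replicates (SD 0.18) in each alternative except the one without overexpression replicates 1 and 2 together, where it moved by more, to 0.13. That SD is larger than the median itself, so a move within it can include a change of sign and does not show a steady median. When 1 library was left out it ran from −0.15 to −0.0050. The directions of single genes were less steady. Hmgcs1, near 0, turned negative with limma-voom (−0.0048), without a filter on low counts (−0.0029), with the replicate block (−0.0047), with the myelinating oligodendrocyte covariate (−0.020) and with the cortical covariate (−0.11), as did Fdps there (−0.12). Sqle and Lss turned positive with the choroid plexus covariate (0.038 and 0.041), which put the median at 0.038, and without overexpression replicates 1 and 2 so did Idi1 (0.020), Sqle (0.17), Lss (0.13) and Cyp51 (0.025). With 1 library left out, ranges that crossed 0 were Hmgcs1 from −0.15 (without overexpression replicate 3) to 0.097, Fdps from −0.13 (without overexpression replicate 3, and also without control replicate 2) to 0.12, Idi1 from −0.12 to 0.049 (without control replicate 1) and Sqle from −0.20 to 0.049 (without overexpression replicate 1). The replicate block, which the labels give no reason for, called 3 genes in all and 0 of the 7, with a median of −0.07. With a prior count of 0.5 the median level of the 7 genes in each library moved by less than the SD. Counts of the 7 genes were 820 or more in each library, and how much counting error adds to the intervals was not separated.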
